A study of Mus musculus with 2 samples.

Results

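Endothelial junction and gap junction genes were described in blood endothelial cells (BECs) sorted from PyMT breast tumors and KPC pancreatic tumors. The 10 genes, out of 31055 counted features, were chosen by name for their place at the cell border: the cadherin Cdh5, the platelet endothelial adhesion molecule Pecam1, the claudin Cldn5, the adhesion molecule Esam, the tight junction scaffold Tjp1, the junctional adhesion molecules Jam2 and F11r, and the connexins Gja1, Gja4 and Gja5. All 10 symbols were found in both libraries, and the choice was made with earlier results of these data known. Each tumor model gave 1 droplet-based (10x Genomics) library, so the 2 libraries are PyMT and KPC, with 1 library per model. In both, 100000 tumor cells were placed orthotopically in WT C57BL6 female mice of 6 weeks, and the tumors were taken on day 10 and digested for 30 min. Collagenase D was used at 400 U/mL for PyMT and 500 U/mL for KPC tumors, and the number of mice behind each library is not given in the sources used here. Tumor model, library, enzyme dose and sequencing depth therefore cannot be told apart in any difference between PyMT and KPC. Cells marked by CD45, EpCAM, Ter119, podoplanin or Annexin V were depleted and CD31-positive cells were sorted. The lymphatic and tumor gates below therefore hold cells that were left after this depletion and sort. CD31 is the product of Pecam1, so the level of Pecam1 was part of the selection.

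Adherens junctions, built on the cadherin Cdh5 and its catenins, hold neighbouring endothelial cells together and carry tension between them. Tight junctions seal the cleft with claudins and JAM-family proteins tied to the actin skeleton by scaffolds such as Tjp1, and the sealing is known to be loosest in the small venules through which leukocytes leave the blood. Gap junctions are channels made of connexins that pass ions and small molecules from cell to cell, and Gja4 and Gja5 are textbook connexins of arterial endothelium.

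Cells with at least 500 genes and less than 10% mitochondrial UMIs were assigned to gates, in this order, by the summed UMIs of gate genes that are not among the 10: tumor (Krt8 and Krt18, at least 5), fibroblast (Col1a1 and Col1a2, 10), lymphatic (Mmrn1 and Prox1, 3), pericyte (Notch3 and Higd1b, 2), venule (Ackr1 and Selp, 3), artery (Sema3g and Fbln5, 2), tip (Apln and Angpt2, 3), capillary (Car4 and Cd300lg, 2) and, for the rest, other. The last 5 gates were taken as BECs, 10677 PyMT cells (median 3921 UMIs) and 7433 KPC cells (median 2753 UMIs). The venule, artery, tip, capillary and other gates held 360, 474, 1907, 2487 and 5449 PyMT cells and 640, 348, 1287, 1282 and 3876 KPC cells. A gate on UMIs takes deep cells more readily, and the median depth of the gates ran from 3399 to 5791 UMIs in PyMT and from 1855 to 5447 UMIs in KPC.

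Gate labels were checked against markers the gates did not use. The venule gate was past 2-fold above the other BEC gates for 6 of 8 venule markers in PyMT and 7 of 8 in KPC, Nr2f2 and Sele among them. The artery gate was past 2-fold for 5 of 6 measured artery markers in KPC but for only 1 of 6 in PyMT, where Stmn2 stood at a log2 ratio of 2.87, Sox17 at 0.76 and Hey1 at 0.44, so the PyMT cells of this gate carried the arterial label less clearly. The tip gate passed for 3 of 8 and 4 of 8 tip markers, Esm1 among them, whereas the capillary gate passed for 0 of 8 capillary markers in PyMT and 2 of 7 in KPC and is named here by its rule alone. All 4 lymphatic markers measured passed in both libraries. The KPC tumor gate passed for 5 of 5 epithelial markers, but none of the 5 reached the count minimum in PyMT. In PyMT they summed to 40.8 CPM (UMIs per 1000000 UMIs of a gate) in the tumor gate, on 120 UMIs. In the PyMT BEC gates the sum was 0.08 to 1.38 CPM, and in the KPC tumor gate it was 4558 CPM. The name of the PyMT tumor gate (379 cells) was thus not settled. That gate is used below only as cells low in endothelial RNA, with all 6 pan-endothelial markers past 2-fold below BECs. Fibroblast markers passed in 1 of 1 measured in PyMT (28 cells) and 4 of 4 in KPC (443 cells). The pericyte gate passed for 1 of 1 and 3 of 3 measured pericyte markers, but its 27 PyMT cells were not 2-fold below BECs for any of the 6 pan-endothelial markers. In the BEC gates, the summed level of the 5 immune markers was 13.3 to 32.9 CPM in PyMT and 23.5 to 86.5 in KPC, highest in the other gate of both.

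Levels are UMIs summed over the cells of a gate for every 1000000 UMIs of that gate (CPM), with exact Poisson 95% intervals, and ratios are log2 ratios of these levels with exact 95% intervals. With 1 library per model no test across samples was possible, and the intervals cover counting error only. They treat UMIs of 1 cell as independent, so they are too narrow where few cells hold many UMIs. In the PyMT artery gate, for example, 753 Gja4 UMIs lay in 140 cells and 181 Gja5 UMIs in 64. Gates called separable or ordered below are so by counting error alone. A gene is called higher or lower where its log2 ratio passed 1 or -1 (2-fold). The 10 genes fell into 2 sets: Cdh5, Pecam1, Esam, Tjp1, F11r and Gja1 kept within 1.45-fold from the lowest to the highest BEC gate of each library, and Cldn5, Jam2, Gja4 and Gja5 spanned 3.61-fold or more.

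**Figure D1:**
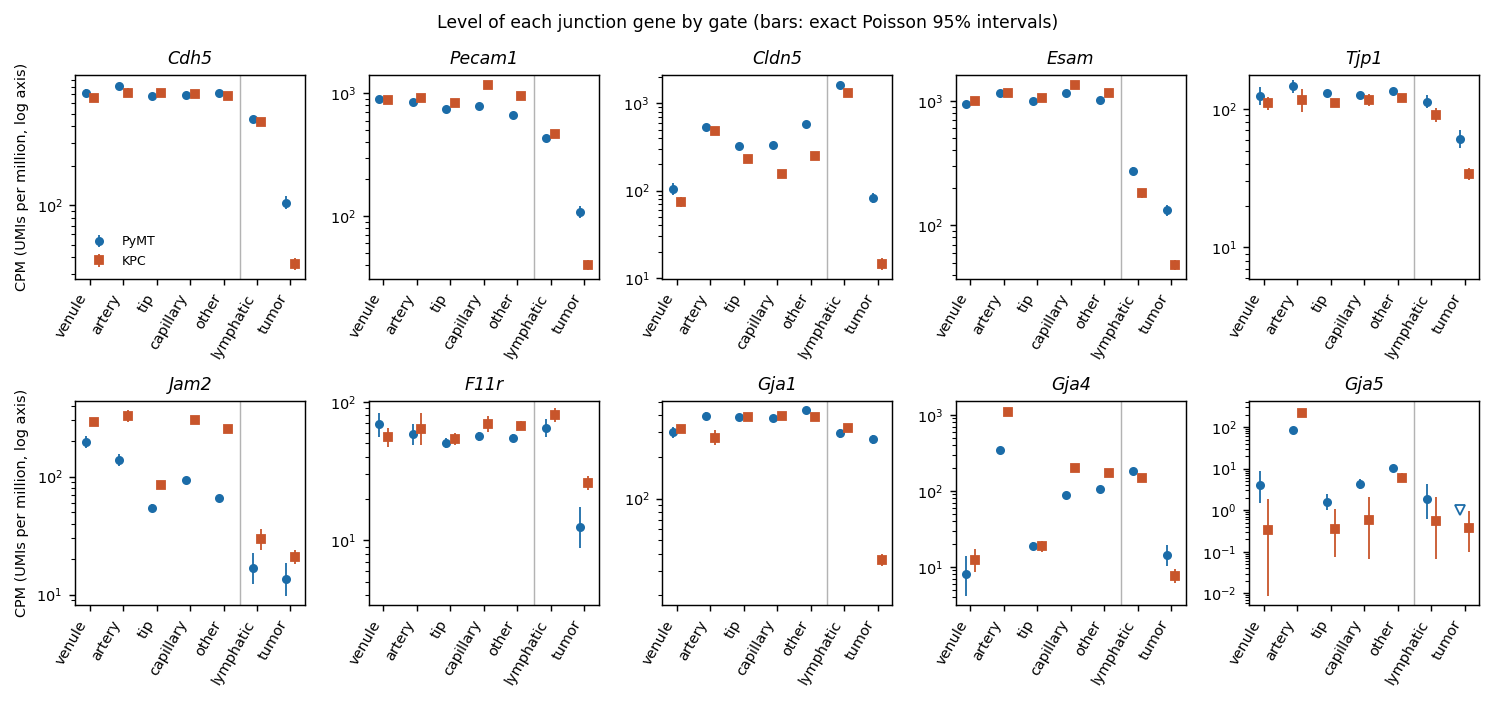
Level of each of the 10 genes (CPM, log axis) in the 5 BEC gates and, right of the grey line, the lymphatic and tumor gates, in PyMT (circles) and KPC (squares), with exact Poisson 95% intervals. The open triangle marks a gate with 0 UMIs at the level of 3 UMIs. Gja4 and Gja5 peak in the artery gate of both libraries, and Cldn5 is lowest in the venule gate among BEC gates.

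The RNA of 3 genes turned on the gate most, and the bases around their start sites are shown so that the genes can be compared at that level. Promoter windows of 300 bases, 250 before and 50 after the start in RefSeq (GRCm38.p6), were at hand for 6 of the 10 genes. The windows of Gja5 (chr3:97032152-97032451, plus strand), Gja4 (chr4:127313990-127314289, minus strand) and Cldn5 (chr16:18776597-18776896, plus strand) read, with searched motifs in capitals:
Gja5: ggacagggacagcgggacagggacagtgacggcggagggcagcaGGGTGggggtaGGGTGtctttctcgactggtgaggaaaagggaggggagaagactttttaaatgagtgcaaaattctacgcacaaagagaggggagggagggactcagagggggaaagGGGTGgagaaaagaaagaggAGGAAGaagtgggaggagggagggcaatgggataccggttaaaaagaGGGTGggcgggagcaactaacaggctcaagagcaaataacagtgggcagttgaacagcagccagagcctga
Gja4: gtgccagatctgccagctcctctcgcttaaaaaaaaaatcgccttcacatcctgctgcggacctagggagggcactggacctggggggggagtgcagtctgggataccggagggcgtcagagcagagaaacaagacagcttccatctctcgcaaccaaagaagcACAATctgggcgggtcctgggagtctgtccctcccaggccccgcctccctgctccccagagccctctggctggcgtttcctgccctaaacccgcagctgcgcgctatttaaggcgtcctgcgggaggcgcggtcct
Cldn5: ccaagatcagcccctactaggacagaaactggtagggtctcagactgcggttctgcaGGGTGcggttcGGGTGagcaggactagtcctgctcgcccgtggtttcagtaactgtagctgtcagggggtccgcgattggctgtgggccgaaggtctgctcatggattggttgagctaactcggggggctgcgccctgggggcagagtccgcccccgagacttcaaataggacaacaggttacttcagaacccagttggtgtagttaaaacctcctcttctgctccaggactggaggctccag
AGGAAG was searched on both strands and is present in 35.4% of 32851 such windows. ACAAT is present in 31.0%, while TGGGAA is in 25.6%, and AGGTCA in 16.3%. CACCC is present in 57.5%. None of these motifs overlaps another in the windows shown. The Gja5 window held CACCC 4 times, each on the strand opposite to the one shown, and AGGAAG 1 time. The Gja4 window held ACAAT 1 time, and the Cldn5 window held CACCC 2 times. Among the windows not shown, that of Tjp1 also held CACCC 2 times, that of Gja1 AGGAAG 1 time and that of F11r TGGGAA 1 time. These 3 genes were near level across the BEC gates, so the motifs were not particular to the genes shown. A match is a description of the letters only.

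Gja5, a connexin of arteries and of the conduction system, was the gene most unequal across gates. In PyMT its level was 83.2 CPM in the artery gate (181 UMIs, 95% interval 71.5 to 96.2), 10.4 in the other gate, 4.36 in the capillary gate, 4.00 in the venule gate (6 UMIs) and 1.62 in the tip gate (20 UMIs). In KPC it was 222 CPM in the artery gate (208 UMIs, 193 to 255) and 6.10 in the other gate (66 UMIs), with 1 UMI in the venule gate, 3 in the tip gate and 2 in the capillary gate. The artery gate thus stood above all other gates in both libraries, and the order of the lower PyMT gates was not separable, since the interval of capillary over venule ran from -1.09 to 1.63 and that of venule over tip from -0.30 to 2.67. The log2 ratio of the artery gate to the other BEC gates was 3.72 (3.44 to 3.99) in PyMT and 6.31 (5.91 to 6.72) in KPC. The tip gate was at -2.95 (-3.67 to -2.30) and -5.40 (-7.69 to -3.84), the capillary gate at -1.40 (-1.84 to -0.99) and -4.41 (-7.47 to -2.55), and the venule gate at -1.31 (-2.76 to -0.18) and -5.11 (-10.42 to -2.62). Of all Gja5 UMIs in BECs, 38.0% (Clopper-Pearson 33.7 to 42.6) lay in the artery gate of PyMT and 74.3% (68.8 to 79.3) in that of KPC, although this gate held 4.45% and 3.52% of all BEC UMIs. Detection was sparse: after thinning each cell to 1500 UMIs, 8.80% of 409 artery-gate cells had a Gja5 UMI in PyMT and 22.3% of 224 in KPC. The shares were 0% of 378 PyMT tumor-gate cells, with a Clopper-Pearson upper bound of 0.971%, and 0.126% of 791 KPC tumor-gate cells. Thinning left out 65 and 124 artery-gate cells that were shallower, and the unthinned shares were 13.5% and 24.7%. The gene lies on chromosome 3 (GRCm38, 96904693 to 97077416, plus strand). The promoter window shown above, 97032152 to 97032451, lies inside this span and not at its first base, so it belongs to a start further within the counted gene. The span overlaps other counted genes on the opposite strand. Reads could be shared if strand was not used in counting, which is not given in the sources used here.

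Gja4, the partner connexin of Gja5 in arterial endothelium, also peaked in the artery gate and was lowest in the venule gate of both libraries. The PyMT levels were 346 CPM in the artery gate (322 to 372), 107 in other, 88.5 in capillary, 18.9 in tip and 8.0 in venule (12 UMIs, 4.13 to 14.0). The KPC levels were 1083 CPM in the artery gate (1017 to 1152), 197 in capillary, 173 in other, 18.7 in tip and 12.3 in venule (36 UMIs, 8.61 to 17.0). Between the highest and lowest gate Gja4 spanned 43.3-fold in PyMT and 88.1-fold in KPC. Artery over the other BEC gates gave log2 ratios of 2.19 (2.08 to 2.31) and 3.33 (3.23 to 3.44), venule -3.50 (-4.45 to -2.69) and -3.68 (-4.20 to -3.21), and tip -2.56 (-2.75 to -2.37) and -3.41 (-3.65 to -3.18). In thinned cells a Gja4 UMI was found in 0.935% (0.193 to 2.71) of PyMT and 1.03% (0.381 to 2.24) of KPC venule-gate cells. The tumor gates, at 1.59% (0.585 to 3.42) and 1.14% (0.522 to 2.15), were not lower. Their median depths were 6939 and 12688 UMIs against 3486 and 3837 in the venule gates. The tumor gates also held 477 and 236 CPM of the 6 pan-endothelial markers. They are thus no empty background, and whether Gja4 in the whole venule gates was above background could not be decided. Unthinned, the Gja4 UMIs of the venule gates came from only 5 of 360 PyMT cells and 15 of 640 KPC cells. The intervals treat UMIs of 1 cell as independent and so are too narrow here. Within the venule gates Gja4 was uneven in KPC, where 31 of the 36 UMIs lay in cells with Selp alone, at 28.3 CPM (19.2 to 40.2) against 3.0 (0.976 to 7.01) in cells with both gate genes and 7.63 (6.08 to 9.46) in the tumor gate. With so few cells, this is not read as a difference between the sets. In PyMT the same cells were at 15.4 CPM (7 UMIs, 6.21 to 31.8) and 3.32 (3 UMIs, 0.684 to 9.69), against 14.3 (10.3 to 19.3) in the tumor gate. The tip gate shares, 1.90% (1.33 to 2.62) and 2.22% (1.48 to 3.20), overlapped those of the tumor gates as well. The pericyte gate also held Gja4, at 235 CPM in PyMT (28 UMIs) and 352 in KPC. The 5 pericyte markers summed to 79.5 CPM in the PyMT artery gate and 145 in the KPC artery gate. The remaining BEC gates had 36.0 to 146 CPM in PyMT and 21.9 to 152 in KPC. The part of pericyte RNA in the Gja4 level of the artery gates was not tested.

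Gja5 and Gja4 were often detected in the same cells. Within the artery gate a Gja4 UMI was seen in 84.4% (73.1 to 92.2) of the 64 PyMT cells with a Gja5 UMI and in 21.0% (17.1 to 25.2) of the 410 without. For KPC the shares were 87.2% (78.3 to 93.4) of 86 cells and 48.9% (42.7 to 55.1) of 262. Median depth did not favour the first set in PyMT (3091 against 3666 UMIs) but did in KPC (2394 against 1757). The same held outside the artery gate, where 79.0% of the 100 PyMT and 83.3% of the 42 KPC cells of the other gate with a Gja5 UMI had Gja4, against 12.1% and 16.1% of those without.

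Within the artery gate, cells with both gate genes and cells with Fbln5 alone had different connexin levels. Cells with UMIs of both Sema3g and Fbln5 (67 in PyMT, 111 in KPC) had Gja5 at 322 and 462 CPM, Gja4 at 900 and 1772 CPM and Cldn5 at 927 and 724 CPM. Cells that passed on Fbln5 alone (400 and 228) had Gja5 at 45.8 and 135 CPM, Gja4 at 251 and 839 CPM and Cldn5 at 478 and 404 CPM. The arterial transcription factor Hey1 moved the same way, from 76.5 to 152 CPM in PyMT and from 204 to 312 in KPC, whereas Cdh5 was 798 and 848 CPM in PyMT and 735 and 682 in KPC. Gja1 did not share this pattern, with 399 and 377 CPM in PyMT and 250 and 281 in KPC for Fbln5 alone and both. Cells with Sema3g alone were only 7 in PyMT and 9 in KPC. Their Gja4 was 828 and 483 CPM, above Fbln5-alone cells in PyMT and below them in KPC. Their Gja5, at 92.0 and 50.8 CPM, rested on 3 and 2 UMIs, and their Cldn5 was 460 and 178 CPM. Sema3g by itself thus did not mark higher Gja4 in both libraries. In PyMT, where the label check was weak, Fbln5-alone cells were 400 of the 474 cells.

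**Figure D2:**
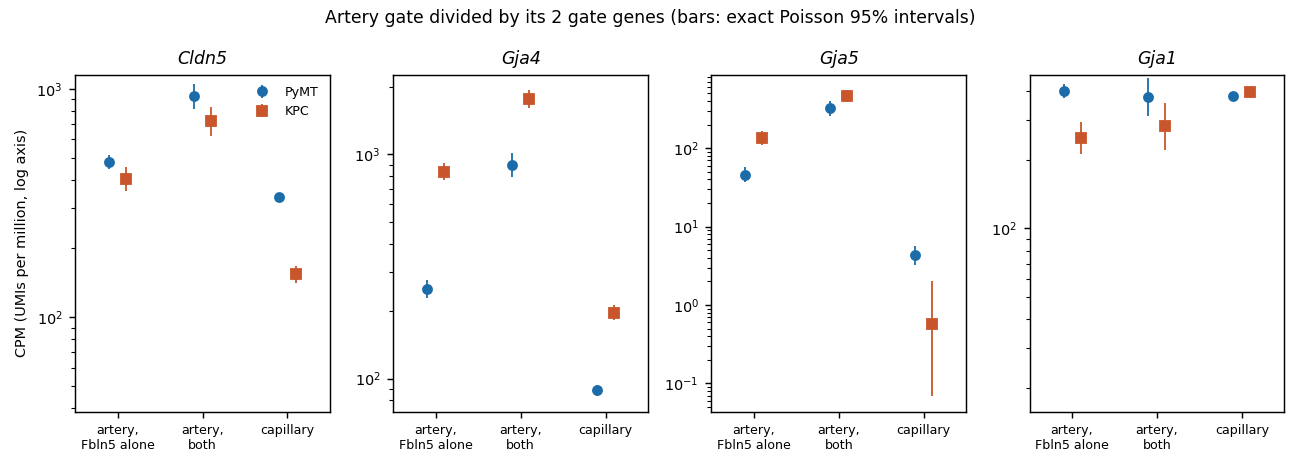
Level of Cldn5, Gja4, Gja5 and Gja1 (CPM, log axis) in artery-gate cells with Fbln5 alone or with both gate genes, beside the capillary gate, in PyMT (circles) and KPC (squares), with exact Poisson 95% intervals. In both libraries Cldn5, Gja4 and Gja5 are highest in cells with both genes, and Gja1 is not.

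Gja1, the most widely expressed connexin of the body, was near level across BEC gates. It stood at 300 CPM in the venule gate, 394 in artery, 388 in tip, 379 in capillary and 436 in other cells of PyMT, and at 319, 275, 386, 395 and 386 CPM in the same gates of KPC. The venule gate was below the other BEC gates in both libraries, by log2 ratios of -0.44 (-0.58 to -0.31) and -0.26 (-0.36 to -0.17), while the artery gate was at -0.04 (-0.14 to 0.06) in PyMT and -0.47 (-0.65 to -0.29) in KPC. None of these passed 2-fold, so the 3 connexins did not move together. Gja1 was 268 CPM in the PyMT tumor gate, where the other 9 genes were past 2-fold below BECs against 18.2% of all genes, and 35.9 in the KPC tumor gate, where all 10 were, against 26.5%.

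Cldn5, the main claudin of endothelial tight junctions, was lowest in the venule gate. PyMT levels were 104 CPM in venule (156 UMIs, 88.3 to 122), 323 in tip, 335 in capillary, 538 in artery and 573 in other. KPC levels were 73.8 CPM in venule (216 UMIs, 64.3 to 84.3), 154 in capillary, 232 in tip, 250 in other and 483 in artery. Venule against the other BEC gates gave log2 ratios of -2.10 (-2.34 to -1.87) and -1.69 (-1.90 to -1.50). Artery was past 2-fold higher in KPC, at 1.20 (1.06 to 1.34), but not in PyMT, at 0.32 (0.24 to 0.41), and a test of that difference was not possible with 1 library each. The KPC value was 0.82 when cells needed 1000 genes and had to lie below 5% mitochondrial UMIs, and 0.84 with the artery gate set before the venule gate, both short of 2-fold. In thinned cells Cldn5 was seen in 11.8% (8.52 to 15.9) of PyMT venule-gate cells, not separable from the PyMT tumor gate at 8.20% (5.64 to 11.4), and in 6.90% (4.97 to 9.27) of KPC venule-gate cells, above the KPC tumor gate at 1.14% (0.522 to 2.15). The lymphatic gate held far more Cldn5 than any BEC gate, 1618 CPM in PyMT and 1312 in KPC, while the 4 lymphatic markers there summed to 1546 and 2794 CPM. In the venule gates these markers summed to 38.7 and 43.7 CPM, and in the artery gates to 74.0 and 169.

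Jam2, the junctional adhesion molecule known as JAM-B, was lowest in the tip gate of both libraries and, over all BECs, differed most between them among the 10 genes. Its PyMT levels were 195 CPM in venule (174 to 219), 139 in artery, 93.5 in capillary, 66.3 in other and 54.1 in tip (50.1 to 58.4), and the intervals of neighbours in this order did not meet. Its KPC levels were 327 CPM in artery, 302 in capillary, 293 in venule, 253 in other and 85.5 in tip (79.4 to 92.0), and the first 3 could not be ordered. Venule against the other BEC gates was 1.41 (1.23 to 1.58) in PyMT and 0.52 (0.41 to 0.63) in KPC, and tip was -0.65 (-0.77 to -0.53) and -1.67 (-1.79 to -1.56). The KPC venule value was -0.05 against the capillary gate alone and 1.04 in cells thinned to 1500 UMIs. Within the venule gate, cells that passed on Ackr1 alone (47 and 60) had Jam2 at 274 and 533 CPM, and those on Selp alone (80 and 189) at 139 and 200 CPM, log2 ratios of 0.98 (0.36 to 1.58) and 1.41 (1.04 to 1.77). Ackr1, a chemokine-binding receptor of venules, and Selp, the leukocyte adhesion molecule P-selectin, thus marked venule-gate cells of different Jam2 level. The Selp-alone cells were deeper, at medians of 5116 against 2632 UMIs in PyMT and 4792 against 2396 in KPC, and the part of depth in this difference was not tested.

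The adherens and adhesion genes held their level. Cdh5, the cadherin that defines the endothelial adherens junction, ran from 686 CPM (tip) to 805 (artery) in PyMT and from 652 (venule) to 721 (artery) in KPC, and all 4 pairs of neighbours in the KPC order had intervals that held 0. In PyMT 2 of the 4 pairs had intervals above 0 by counting error alone, artery over venule at 0.16 (0.05 to 0.27) and other over capillary at 0.04 (0.00 to 0.08). The second is too small and too near 0 to be read as an order. Esam, a JAM-family adhesion molecule of endothelium and platelets, ran from 946 CPM (venule) to 1156 (artery) in PyMT and from 1003 (venule) to 1330 (capillary) in KPC. Its venule gate was the lowest in both, by -0.15 (-0.23 to -0.08) and -0.19 (-0.24 to -0.13). Pecam1 ran from 671 CPM (other) to 899 (venule) in PyMT and from 835 (tip) to 1159 (capillary) in KPC, so that no gate was at the same end in both.

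Tight junction partners other than Cldn5 and Jam2 were also level. Tjp1, the scaffold that ties claudins to actin, ran from 125 to 146 CPM in PyMT and from 110.3 to 121 CPM in KPC, and no pair of neighbouring gates was separable in either library. F11r, known as JAM-A, ran from 50.5 CPM (tip) to 68.7 (venule) in PyMT and from 54.0 (tip) to 69.4 (capillary) in KPC, and likewise no neighbours were separable. F11r had 60 UMIs in the KPC artery gate, with an interval of -0.34 to 0.42 for its log2 ratio there.

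Because the 10 genes were chosen with earlier results of these data known, the shares of all genes beside their counts are a description only. Counted over the 10 genes, the venule gate was past 2-fold lower for 3 (Cldn5, Gja4 and Gja5) in PyMT, where 3.75% of 9819 measured genes were lower, and for the same 3 in KPC, where 5.95% of 11107 were. Lower in both libraries were 3 of the 10 genes and 1.8% of 9779 genes. Higher in the venule gate was 1 gene (Jam2) in PyMT against 3.49% of all genes, and 0 in KPC against 1.95%. The artery gate was higher for 2 genes (Gja4 and Gja5) in PyMT against 2.03% of all genes, for 3 (with Cldn5) in KPC against 3.82%, and for 2 in both against 1.01%. In the tip gate 2 genes (Gja4 and Gja5) were lower in PyMT against 5.29% of all genes, 3 (with Jam2) in KPC against 9.08%, and 2 in both against 3.17%. The capillary gate was lower for Gja5 alone in each library, against 4.12% and 4.68% of all genes, and 1.31% of genes were lower there in both. For the venule, tip and capillary gates the comparator included the artery gate. That gate held 38.0% of Gja5 UMIs in PyMT BECs and 74.3% in KPC BECs, so these Gja5 calls are not separate results. Against the capillary gate alone, Gja5 was -1.43 (-2.25 to -0.66) in the PyMT tip gate. It was not measured in that contrast in the KPC venule and tip gates. In the PyMT venule gate Gja5 rested on 6 UMIs in 2 cells and was -0.12 against the capillary gate alone. In the PyMT capillary gate it was -0.68 in thinned cells. In the KPC venule gate the thinned cells held 0 Gja5 UMIs, which with 3 UMIs taken as the floor gave a bound of -0.93, short of 2-fold. The median log2 ratio of the 10 genes was -0.12 and -0.18 in the venule gate and 0.21 and 0.05 in the artery gate of PyMT and KPC, where the medians of all genes were 0.03 and -0.04, and 0.03 and 0.01. In the tip and capillary gates the medians of the 10 were -0.13 and -0.01 in PyMT and -0.19 and 0.14 in KPC, beside -0.04 and -0.01, and -0.11 and 0.01, for all genes.

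**Figure D3:**
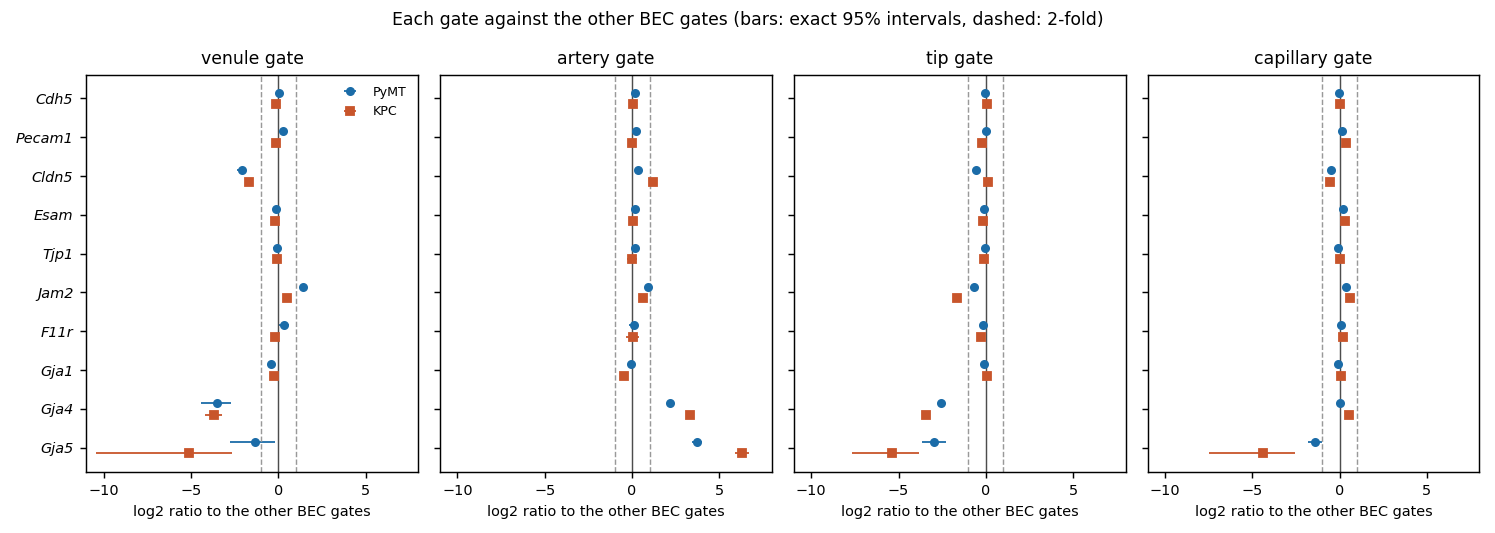
log2 ratio of each gene in the venule, artery, tip and capillary gates to the other BEC gates of the same library, in PyMT (circles) and KPC (squares), with exact 95% intervals and dashed lines at 2-fold. Gja4 and Gja5 lie right of the dashed lines in the artery gate and left of them in the venule and tip gates, and Cldn5 lies left in the venule gate.

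Set against all BECs, lymphatic-gate cells (633 in PyMT, 802 in KPC) had another junction profile. Cldn5 was higher in both, by log2 ratios of 1.90 (1.85 to 1.94) and 2.57 (2.52 to 2.63). Gja4 was higher in PyMT only, at 1.08 (0.94 to 1.21) against 0.03 (-0.10 to 0.17) in KPC, so 2 of the 10 genes were higher in PyMT, where 8.22% of all genes were, and 1 in KPC, where 7.54% were. Cldn5 alone was higher in both, against 4.59% of all genes. Esam, Jam2 and Gja5 were lower in both libraries, 3 of the 10 against 6.74% and 10.5% of all genes and 5.05% in both, with Esam at 272 and 181 CPM in lymphatic cells against 1047 and 1127 in BECs. Gja5 rested on 5 and 2 UMIs there, at 1.87 and 0.566 CPM, near the tip gates at 1.62 and 0.359 CPM. The artery gate held 38.0% and 74.3% of the Gja5 UMIs of BECs, so low Gja5 was not particular to lymphatic cells. Cdh5 stood at 453 and 433 CPM there, short of 2-fold below BECs at -0.65 and -0.69.

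Between tumor models none of the 9 genes measured in all 5 BEC gates was past 2-fold the same way in all 5, where 0.847% of 7795 genes were higher in KPC and 0.269% lower. Jam2 came nearest: over all BECs it was 214 CPM in KPC and 77.2 in PyMT, a log2 ratio of 1.47 (1.41 to 1.53) and the only one of the 10 past 2-fold, against 9.31% of 12835 genes higher and 3.3% lower. Cldn5 over all BECs fell just short, at 220 CPM in KPC and 435 in PyMT, -0.98 (-1.02 to -0.94). By gate the KPC to PyMT ratio of Jam2 was 0.59 in venule, 0.66 in tip, 1.23 in artery, 1.69 in capillary and 1.93 in other. Gja4 was higher in KPC by 1.65 (1.51 to 1.78) in artery and 1.16 (1.02 to 1.29) in capillary, and Gja5 by 1.42 (1.12 to 1.71) in artery. That made 3 genes higher in the artery gate against 6.97% of all genes, and 2 in the capillary gate against 10.5%. The makeup of the artery gate differed, with Fbln5-alone cells 400 of 474 in PyMT and 228 of 348 in KPC. In these cells Gja4 was 251 CPM in PyMT and 839 in KPC, and Gja5 was 45.8 and 135. The part of this makeup in the artery-gate ratios was not tested. Cldn5 was lower in KPC by -1.12 (-1.26 to -1.0) in capillary and -1.20 (-1.26 to -1.14) in other, and Gja5 in capillary by -2.95 (-6.03 to -1.02) on 2 KPC UMIs, against 4.26% of all genes lower in capillary and 3.67% in other. In the other gate Jam2 was the 1 gene higher, against 9.86%. Cdh5, Esam and Tjp1 stayed between -0.34 and 0.20 in all 5 gates. The median of all genes was 0.03 to 0.16 across the 5 gates, so these ratios are to be read against a small shift towards KPC.

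**Figure D4:**
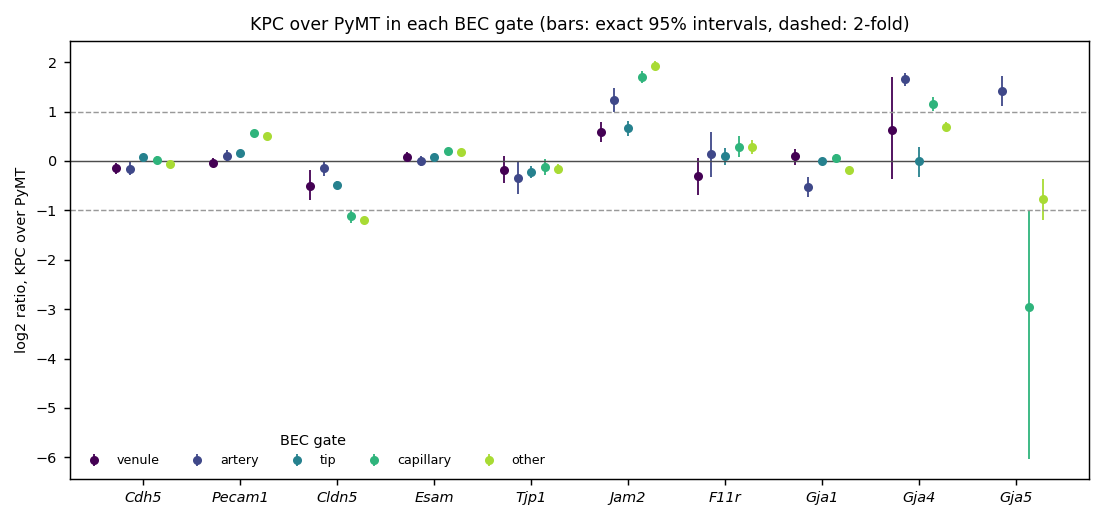
log2 ratio of KPC over PyMT for each gene in the 5 BEC gates, with exact 95% intervals and dashed lines at 2-fold, for ratios with enough UMIs. Jam2 is above 0 in all 5 gates and Cldn5 below it in venule, tip, capillary and other, while Cdh5, Esam and Tjp1 stay near 0.

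Cells of the other gate were further divided by Kcne3 and Mest (at least 3 UMIs summed), 2 genes of angiogenic endothelium. They were 2726 of 5449 cells in PyMT and 309 of 3876 in KPC, so the makeup of the other gate differed between the 2 libraries. Their depth differed too, with a median of 3399 UMIs in the PyMT and 2120 in the KPC other gate, and the Kcne3 and Mest cells were deeper than the rest, at 4152 against 2680 UMIs in PyMT and 5432 against 1922 in KPC. Jam2 was lower in the Kcne3 and Mest cells of both, at 51.5 against 90.1 CPM in PyMT and 91.9 against 287 in KPC, log2 ratios of -0.81 (-0.96 to -0.65) and -1.64 (-1.87 to -1.42). Cldn5 was higher in them, at 618 against 502 CPM in PyMT and 488 against 200 in KPC, by 0.30 (0.24 to 0.35) and 1.29 (1.17 to 1.41). Gja4 was lower, by -1.45 (-1.58 to -1.33) and -1.11 (-1.35 to -0.88). No share of all genes is given for this split. Between libraries Cldn5 therefore stood at 488 and 618 CPM within Kcne3 and Mest cells and at 200 and 502 CPM in the rest, and the part of this makeup in the ratio of KPC to PyMT was not tested.

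Cycling BECs, with at least 2 UMIs of Mki67 and Top2a, carried less Cldn5, Gja4 and Gja5 than the rest. They were 1530 PyMT and 787 KPC cells. Against the other BECs Cldn5 was 245 and 491 CPM in PyMT and 122 and 248 in KPC, log2 ratios of -1.0 (-1.06 to -0.94) and -1.03 (-1.14 to -0.91). Gja4 was lower by -1.60 (-1.76 to -1.45) and -2.08 (-2.28 to -1.89), and Gja5 by -2.34 (-2.97 to -1.77) and -2.05 (-2.83 to -1.36). Jam2 differed by -0.17 (-0.28 to -0.05) and -0.79 (-0.90 to -0.68), Cdh5 by -0.20 and -0.26 and Tjp1 by -0.08 (-0.17 to 0.00) and -0.13 (-0.26 to -0.01). Cycling cells were deeper, at medians of 6694 and 6297 UMIs against 3648 and 2380. Confined to the other gate, the ratios of Cldn5 were -1.04 and -0.92, and those of Gja4 -1.50 and -1.77. For Gja5 they were -2.28 (-3.61 to -1.21) in PyMT and -1.19 (-2.86 to 0.12) in KPC, where the interval held 0.

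The wider junction machinery was counted over 6 lists of 75 genes, all present in the files. Of all measured genes, 1.8% were past 2-fold lower in both libraries in the venule gate, 3.17% in tip and 1.31% in capillary. In the artery gate 1.01% were higher in both. Higher in the venule gate were 3.49% of genes in PyMT and 1.95% in KPC. No share of genes past 2-fold in both libraries is given for the other directions, such as higher in venule or in tip. Of the adherens junction list, 12 of 13 genes were measured in the venule gate, where Plekha7, an adherens junction protein, was past 2-fold higher in both libraries (2.19 and 2.96) and Jup, the catenin plakoglobin, lower (-1.02 and -1.29). In the artery, tip and capillary gates no adherens gene passed in both. Of the tight junction list, 6 of 16 genes were measured in both libraries in the venule and artery gates and 9 in the tip and capillary gates. Cldn15, a claudin that forms ion pores, was lower in venule (-1.28 and -1.72) and higher in artery (1.46 and 1.02) in both, the directions Cldn5 also had in both libraries, although Cldn5 was short of 2-fold in the PyMT artery gate. In the tip gate Lsr, a protein of the contacts where 3 cells meet, was lower in both (-1.50 and -1.07), as was the polarity protein Pard3 (-3.10, -5.41 to -1.50, on 3 UMIs, and -1.11, -2.53 to 0.09), and in capillary none passed in both libraries. Few genes of the gap junction and pannexin list reached the count minimum, with 2 of 11 measured in both libraries in the venule and artery gates and 3 in the tip and capillary gates.

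Among 9 genes of leukocyte passage and the lateral border, Esm1, a tip cell proteoglycan, was lower in venule (-2.70 and -3.52) and higher in tip (1.91 and 1.68) in both libraries, and Esm1 was also among the tip markers used to check the gates. Of 15 junction regulators, among them the small GTPase Rap1b and the receptor Tek, 14 were measured in both libraries in each of the 4 gates and none was past 2-fold in both. The shares of all genes in both libraries given above, lower in venule, tip and capillary and higher in artery, are also low. The absence of calls is thus no trait of these regulators. The epithelial junction list, with 11 genes, gave 1 measured gene at most in both, Pkp3, which was lower in the venule gate (-3.63, -8.94 to -1.14, and -2.34, -5.41 to -0.44) on 1 and 2 UMIs. In the other 3 gates no epithelial gene passed in both. That list summed to 4.59 to 13.5 CPM in the BEC gates of PyMT and 4.81 to 9.57 in those of KPC. In the tumor gates it summed to 57.7 CPM in PyMT and 661 CPM in KPC.

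Genes whose level followed each member most closely over the 5 BEC gates of both libraries (10 points, log2 of CPM plus 1, centred per library) were looked up as a description. For Cldn5 they were Ptprm (Pearson r 0.992), Sh3kbp1 (0.979) and Tubb2b (0.975), for Jam2 Gbp4 (0.988), Cebpd (0.981) and Tmcc3 (0.980), for Gja4 Tmc6 (0.977), Cyp4f16 (0.972) and Dgka (0.970), and for Gja5 Auts2 (0.988), Atp13a3 (0.974) and Xkr8 (0.972). For Cdh5 they were Rnf7 (0.924), Trappc10 (0.917) and Otud1 (0.909), for Pecam1 Sclt1 (0.959), Fli1 (0.959) and Rtp3 (0.950), for Esam Plekho1 (0.970), Ppp1r2 (0.969) and Pik3r6 (0.954), and for Tjp1 Exd2 (0.939), 4931406C07Rik (0.938) and Meg3 (0.933). F11r was followed by Ezh1 (0.983), Hspa2 (0.976) and Med15 (0.973), and Gja1 by Mtss1 (0.974), Abraxas2 (0.972) and Celf4 (0.970). The 10 points share 2 libraries and their gates, and over all genes searched a high r is found for each member, so these values say only whose levels ran alongside. Tjp1, Cdh5 and F11r ranged over only 0.23, 0.25 and 0.44 log2 units across the points, while Meg3, listed for Tjp1, ranged over 4.55. The part of counting error in the r of such level genes was not tested.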

How the data were processed

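Per the labels and the study's methods, the authors sequenced both libraries on a droplet platform and used Cell Ranger 3.0 with the mm10 genome. They deposited raw UMI counts for each gene in each barcode (unique molecular identifiers, so PCR copies are counted once). Whether counting used strand is not given in the sources used here. PyMT held 12464 barcodes and KPC 10236, of which 11744 and 9591 passed the filters (500 genes, 10% mitochondrial UMIs). Before the filters, all barcodes together held 55547926 and 44441942 UMIs, and 170 barcode sequences occurred in both libraries. Doublets were not removed.

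From the deposited counts, UMIs were summed per gate and library with Python 3.11.15, numpy 2.4.6, scipy 1.17.1 and pandas 2.3.3. A gene was measured in a contrast with at least 30 UMIs in all and 5 expected on each side. Against a gate at 0 UMIs, ratios are bounds computed from 3 UMIs. Ratios carry exact conditional intervals and shares Clopper-Pearson intervals. The functions were tested on simulated counts. All 10 genes are named, with up to 3 genes per wider list and gate past 2-fold in both libraries and the 3 genes most like each member. The members and lists were chosen with earlier results of these data known. Alternatives changed filters, gates, depth, scaling and comparator. A result of the gap junction and pannexin list is not reported here.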

Additional observations from a re-analysis of the deposited data

Results flagged for a closer look

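Some values pointed in opposite directions in PyMT and KPC with both counting intervals clear of 0. With 1 library per model the difference itself was not tested in any of them. Gja4 in tip-gate cells with Kcne3 and Mest was -1.17 (-1.60 to -0.73) against the rest of the tip gate in PyMT and 1.21 (0.74 to 1.69) in KPC, on levels of 16.1 and 36.3 CPM in PyMT and 28.9 and 12.5 CPM in KPC, beside 14.3 (10.3 to 19.3) and 7.63 (6.08 to 9.46) CPM in the tumor gates. Jam2 in the other gate was -0.36 against the remaining BEC gates in PyMT and 0.44 in KPC. Cldn5 in the tip gate was -0.55 in PyMT and 0.11 in KPC.

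Pecam1, which was used in the sort, was opposite in 3 places. It was 0.30 in PyMT and -0.11 in KPC for the venule gate, -0.22 and 0.06 for the other gate, and 0.07 and -0.45 for Kcne3 and Mest cells within the other gate. Smaller pairs were Cdh5 in the tip gate (-0.07 and 0.07) and Esam in the other gate (-0.08 and 0.05). Gja4 in artery-gate cells with Sema3g alone, 7 cells in PyMT and 9 in KPC, was 1.72 (1.10 to 2.28) against Fbln5-alone cells in PyMT and -0.80 (-1.54 to -0.14) in KPC.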

How the results depend on the processing

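No paired analysis was possible because each tumor model has 1 library and the labels give no replicate numbers, and no library could be left out for the same reason. Of 104 counts of genes past 2-fold under the alternatives, 101 were within 1.5 times the reported count and 3 moved, all for the capillary gate: in cells thinned to 1500 UMIs the count was 0 in PyMT and 2 in KPC (Cldn5 and Gja5), and with the mean over cells of UMIs per 10000 it was 2 in KPC. The cause was not tested. These counts took both directions together and compared only the number of genes, so a change of members could pass as unchanged. In thinned cells of the KPC venule gate, for example, Jam2 passed 2-fold and Gja5 fell short of it. Among ratios of the venule, artery, tip and capillary gates to the other BEC gates, none past 2-fold turned its direction. The lymphatic, KPC to PyMT, cycling, and Kcne3 and Mest ratios of single genes were not recomputed. Of 931 single log2 ratios, 686 stayed within the reported interval and 245 did not. Gja4 stayed past 2-fold the same way under all 12 alternatives in the venule, artery and tip gates of both libraries, from 1.97 to 4.38 in the PyMT artery gate and 2.46 to 4.18 in the KPC one, and Cldn5 in both venule gates, from -2.71 to -1.69 and -2.13 to -1.06. Gja5 in the artery gate kept its call in the 10 alternatives that could be computed in each library. An artery gate on Sema3g alone, chosen after seeing the data, held 22 PyMT and 44 KPC cells and left too few expected Gja5 UMIs for a ratio, as did the thinned cells of the artery gate. Low UMI counts limit Gja5 in the venule, tip and capillary gates and Gja4 in the venule gates.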
